A study of Homo sapiens with 19 samples.

Results

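The genes described here copy DNA or supply its building blocks. They comprise 46 genes: 5 that license replication origins, 12 of the replicative helicase, 5 of the sliding clamp and its loader, 8 of the polymerases and primase, 5 that bind single strands or process and join the new ones, 4 of nucleotide synthesis, 4 that restore chromatin behind the fork, and 3 E2F transcription factors. They were chosen by name, and each was read from the probe set naming that gene alone with the highest mean over the 19 arrays. All 46 had such a probe set, among 19775 genes that did, and 46 of 46 were among the 12925 genes that passed the filter on signal and were tested.

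The cells were SKBR3, a human breast cancer line with amplified ERBB2, grown in serum. The untreated group had 3 arrays, with no treatment and no sort named. Epirubicin, an anthracycline drug that poisons topoisomerase II, was given at 60 nM for 3 days, and the cells were then sorted into CD44-/lo and CD44hi fractions, each with 4 arrays. The hypoxia groups were kept at 1% oxygen for 7 days and sorted in the same way, again with 4 arrays per fraction. CD44 is a cell surface receptor for hyaluronan. Treatment and sorting cannot be told apart in a comparison with untreated cells, and the treatments also differed in length. The labels call the samples biological replicates, but nothing says whether each was its own culture. The p-values here therefore reflect only how far these samples spread, which may be technical. All groups come from 1 cell line.

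Before S phase, ORC, CDC6 and CDT1 load the MCM ring onto origins, and CDC45 and the GINS complex then join it to form the working helicase. Polymerases start and extend the new strands with the help of the PCNA clamp, while ribonucleotide reductase, thymidylate synthase and thymidine kinase supply deoxynucleotides. Many of these genes are textbook targets of E2F factors, which the RB family holds in check outside the cell cycle, and they are therefore widely used as markers of proliferating tumour cells.

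The upstream sequences of 6 members are shown because they hold matches to the motif of E2F factors, 3 of which are members. Each is a window from the 250 bases before the first start that RefSeq's table lists for the gene (GRCh38.p14), written 5′ to 3′ on the strand of the gene. Capitals mark the matches to TTTCCCGC, TTTGGCGC, TTTCGCGC or TTTGCCGC on either strand. The windows lie at chr2:135876509-135876608 (minus strand), chr7:100101398-100101603 (minus), chr20:5126628-5126727 (minus), chr18:657553-657652 (plus), chr19:4909401-4909500 (plus) and chr20:33686386-33686485 (minus).
MCM6: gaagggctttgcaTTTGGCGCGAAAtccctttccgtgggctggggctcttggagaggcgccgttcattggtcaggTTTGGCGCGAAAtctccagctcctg
MCM7: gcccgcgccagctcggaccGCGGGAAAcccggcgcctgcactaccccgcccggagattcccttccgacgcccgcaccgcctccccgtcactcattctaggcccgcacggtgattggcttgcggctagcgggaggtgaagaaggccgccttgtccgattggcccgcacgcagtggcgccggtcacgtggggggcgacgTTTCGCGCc
PCNA: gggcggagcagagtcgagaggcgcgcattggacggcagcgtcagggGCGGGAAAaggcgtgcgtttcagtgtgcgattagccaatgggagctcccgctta
TYMS: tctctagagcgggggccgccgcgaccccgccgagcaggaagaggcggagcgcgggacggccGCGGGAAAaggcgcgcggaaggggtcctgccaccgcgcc
UHRF1: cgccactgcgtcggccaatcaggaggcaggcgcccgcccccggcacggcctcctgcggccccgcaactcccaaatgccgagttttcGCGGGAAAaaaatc
E2F1: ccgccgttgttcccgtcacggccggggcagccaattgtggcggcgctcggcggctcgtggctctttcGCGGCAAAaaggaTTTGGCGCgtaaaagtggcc

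The MCM6 window held 4 matches, which form overlapping pairs with 1 match on each strand. MCM7 and E2F1 held 2 matches each, and PCNA, TYMS and UHRF1 held 1 each. The promoter table listed 39 of the 46 members. An E2F match stood in 15 of these 39 (38.5%), against 979 of 35116 promoters in the table (2.79%) and 453 of 10448 promoters of genes tested here (4.34%). The others with a match were CDT1, MCM3, GINS2, RFC3, POLA1, POLA2, POLE, LIG1 and E2F2. A CCAAT box, searched as CCAAT on both strands, stood in 21 of the 39 (53.8%) against 32.0% of all promoters in the table and 34.9% of those of genes tested here. The CHR element of mitotic promoters, searched as TTTGAA on both strands, stood in 1 of the 39 (2.56%), that of RRM1, against 13.3% of all promoters in the table and 8.69% of those of genes tested here. These matches describe letters and not bound sites.

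Linear signals are given as deposited, and changes are on the log2(signal + 4.2) scale. The offset is the 25th percentile of all deposited values. A gene is called lower or higher at an adjusted p under 0.05. Arrays of a group correlated across genes at r = 0.919 to 0.985. Mean CD44 signal was 66.1 untreated, 88.0 and 648 in CD44-/lo and CD44hi cells after epirubicin, and 205 and 1042 after hypoxia. The summed signal of 8 markers of the SKBR3 line lay between 15677 and 25174 on every array, with ERBB2 means of 2933 to 3661. Of 8 immune markers 6 had a probe set, and their summed signal lay between 5.5 and 64.6. The summed signal of 8 stromal and endothelial markers was 81.2 to 96.8 untreated and 117 to 403 in the treated groups. In each group 4 to 6 of these 8 lay under the filter on every array, and 3 of the 8 were tested. CDH5, an endothelial cadherin, had means of 33.4 untreated, 139 and 199 in CD44-/lo and CD44hi cells after epirubicin, and 85.9 and 95.8 after hypoxia, and was called higher in all 4 treated groups. Their part in the results was not tested.

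Most of these genes fell after hypoxia, in both CD44 fractions. In CD44-/lo cells 41 of 46 members were lower than untreated and 0 higher, where 11.7% of all genes tested were lower and 10.7% higher. In CD44hi cells 42 were lower and 0 higher, where 14.1% of all genes were lower and 12.8% higher. The median change of the members was -1.63 and -1.54 on the log2 scale, against 0.02 and 0.00 for all genes tested. On the scale with the offset, the called falls ran from 1.98-fold (RPA1) to 6.34-fold (MCM10) in CD44-/lo cells and from 1.51-fold (RPA2) to 5.72-fold (POLE2) in CD44hi cells. In such bulk samples, fewer cells in S phase and less RNA per cell cannot be told apart.

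After epirubicin 0 of 46 members were called in either fraction by limma, and 3 and 4 had an unadjusted p under 0.05. Those 3 and 4 were all lower and made up 6.52% and 8.7% of the members, near the 6.88% and 10% of all genes tested that were lower at that unadjusted p. At the adjusted p, among all genes tested 0.565% were lower and 2.26% higher in CD44-/lo cells, and 1.79% were lower and 4.63% higher in CD44hi cells. The members' estimates lay below 0 for 39 of 46 in CD44-/lo cells and 44 of 46 in CD44hi cells. Among all 12925 genes tested, 6014 and 6420 had estimates below 0. Their medians were -0.36 and -0.45, against 0.03 and 0.00 for all genes. The members with an unadjusted p under 0.05 were MCM6, RFC4 and POLA1 in both fractions and POLE2 in CD44hi cells. Fitted with only the groups compared, 3 members passed in CD44-/lo cells (MCM6, POLA1 and RFC4) and 2 in CD44hi cells (POLA1 and POLE2), all lower. These were 6.52% and 4.35% of the members, near the 4.21% and 5.26% of all genes tested that were lower in the same fit. At an unadjusted p under 0.05 in that limma fit, 14 members (30.4%) were lower in each fraction and 0 higher. Of all genes tested there, 13% and 14.4% were lower at that unadjusted p. With replicate number as a replicate block, POLA1 passed in CD44hi cells, where 2.89% of all genes were lower. With the mean log2(signal + 4.2) of the hybridisation control probe sets as a covariate, the members' medians turned to 0.05 and 0.21. On the linear scale that control signal averaged 2177 on the untreated arrays and 3257 and 4396 after epirubicin in CD44-/lo and CD44hi cells. Its part and that of treatment therefore cannot be fully told apart. The 4 comparisons share the 3 untreated arrays.

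**Figure D1:**
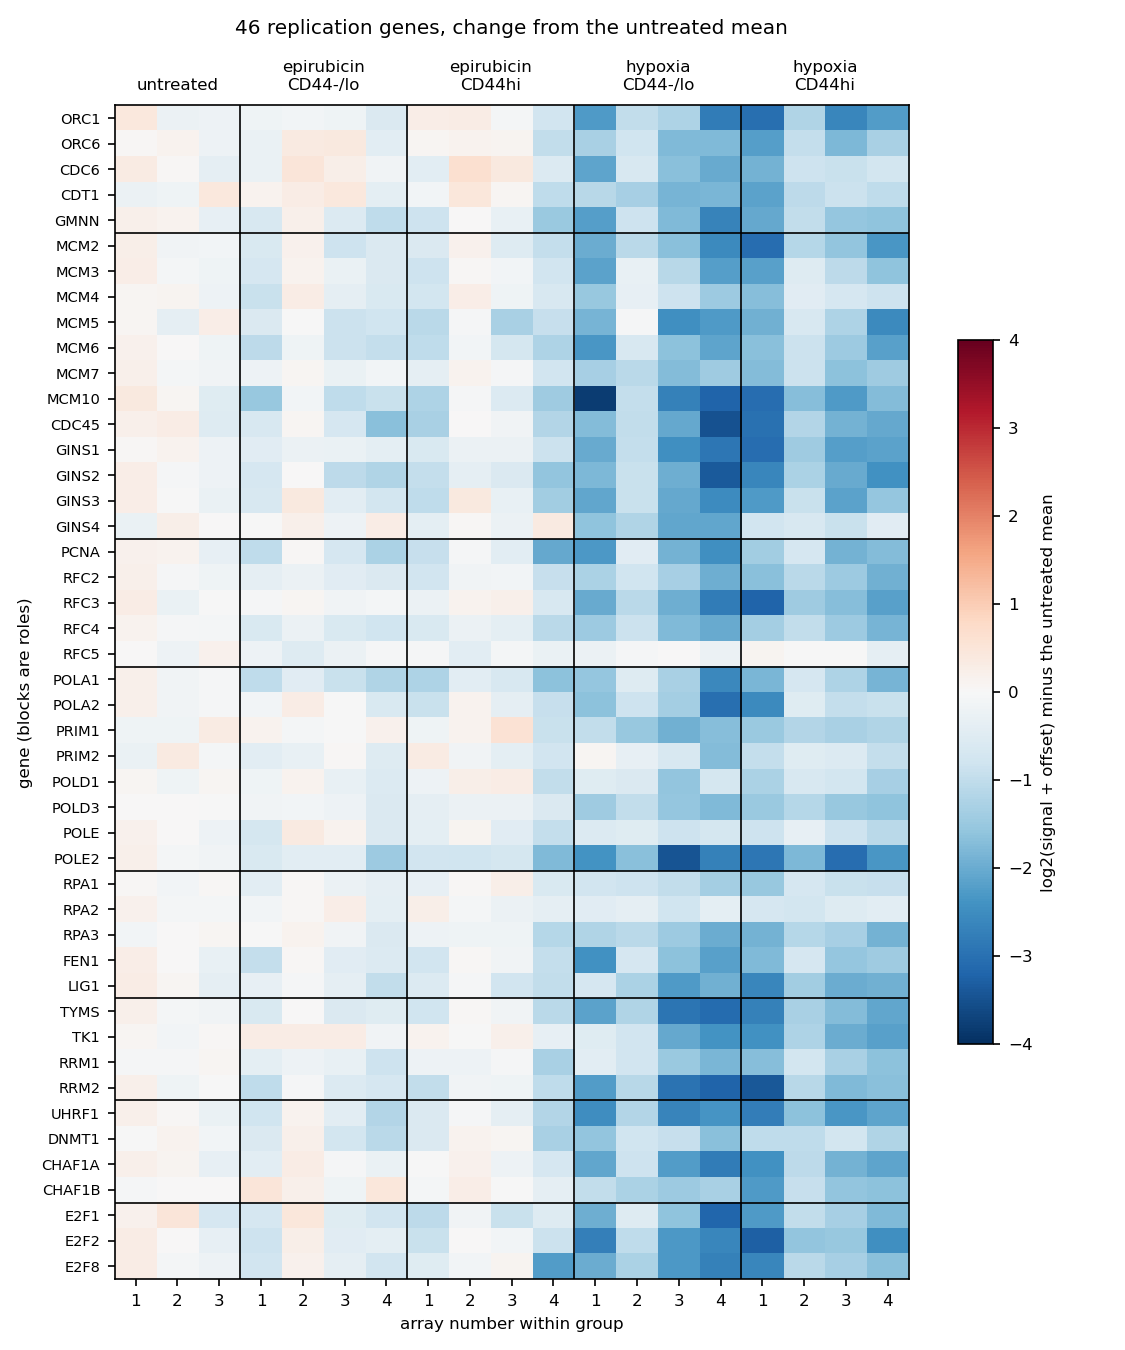
Each row is 1 of the 46 genes in blocks by role, each column 1 of the 19 arrays, and the colour is the log2(signal + 4.2) minus the untreated mean. The hypoxia columns are blue for nearly every gene, palest in the arrays numbered 2, while RFC5 stays near white throughout.

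**Figure D2:**
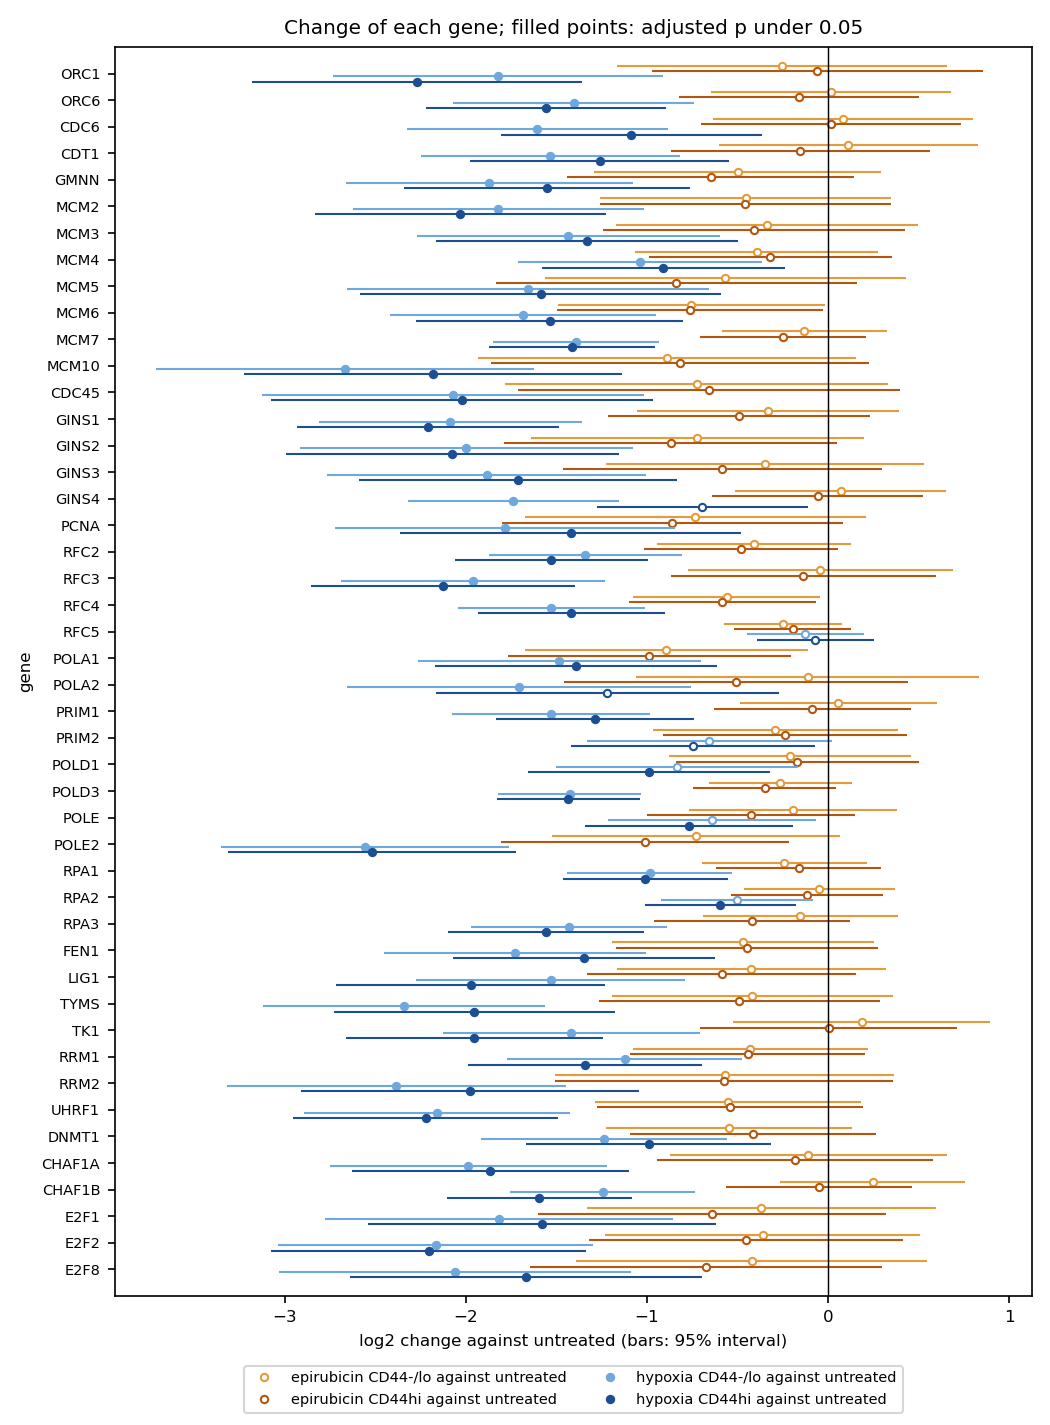
Points show the log2 change of each gene against untreated in the 4 sorted groups, with the 95% interval as a bar and filled points at an adjusted p under 0.05. Filled points number 41 and 42 for hypoxia CD44-/lo and CD44hi and 0 for both epirubicin groups.

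Whole groups separated in the same way. Every hypoxia array lay below every untreated array for 42 members in CD44-/lo cells and 45 in CD44hi cells, as it did for 16.4% and 20.4% of all genes tested. MCM5, RFC5, PRIM2 and E2F1 overlapped in CD44-/lo cells, and RFC5 in CD44hi cells. After epirubicin the arrays lay below all untreated arrays for 8 members in each fraction, against 10.5% and 12.6% of all genes. Those 8 included GINS1, RFC4, POLA1, POLD3, POLE2 and RRM1 in both fractions. The untreated group had the highest mean for 39 members and the epirubicin CD44-/lo group for 7. The lowest mean stood in hypoxia CD44-/lo cells for 22 members, in hypoxia CD44hi cells for 23 and in epirubicin CD44-/lo cells for RFC5.

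All 5 origin licensing genes fell after hypoxia in both fractions, with medians of -1.60 and -1.55. GMNN encodes geminin, which binds CDT1 and blocks a second round of licensing. GMNN read 705, 675 and 493 on the untreated arrays. After epirubicin, GMNN read 396, 715, 417 and 302 in CD44-/lo cells and 347, 620, 506 and 216 in CD44hi cells. After hypoxia, GMNN read 132, 342, 178 and 93.3 in CD44-/lo cells and 145, 306, 208 and 199 in CD44hi cells. The highest hypoxia array lay below the lowest untreated one in both fractions, while the epirubicin groups overlapped with untreated. The GMNN change was -1.87 ± 0.38 (SE), adjusted p = 0.0016, in CD44-/lo cells and -1.55 ± 0.38 (SE), adjusted p = 0.00468, in CD44hi cells.

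CDC6 is the ATPase that loads the MCM ring together with ORC. CDC6 read 1347, 1119 and 839.5 on the untreated arrays. After epirubicin, CDC6 read 903, 1524, 1274 and 986 in CD44-/lo cells and 813, 1671, 1434 and 733 in CD44hi cells. After hypoxia, CDC6 read 248, 691, 339 and 267 in CD44-/lo cells and 288, 609.9, 584 and 645 in CD44hi cells. The untreated and epirubicin arrays were interleaved, and the hypoxia arrays were all below them. The change of CDC6 was -1.60 ± 0.34 (SE), adjusted p = 0.00248, in CD44-/lo cells and -1.09 ± 0.34 (SE), adjusted p = 0.0241, in CD44hi cells. After epirubicin CDC6 stood at 0.08 ± 0.34 and 0.02 ± 0.34. ORC1, the largest origin recognition subunit, fell 3.54-fold and 4.83-fold after hypoxia, but its signals there were 0.6 to 15.2, near or under the offset, so the fold is understated. CDT1, the loading partner of CDC6, fell 2.89-fold and 2.4-fold. ORC6, a small origin recognition subunit, fell 2.65-fold and 2.94-fold, read from a probe set of a type that can share probes with other genes.

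Of the 12 helicase genes, 12 fell after hypoxia in CD44-/lo cells and 11 in CD44hi cells, with medians of -1.78 and -1.65. MCM10 helps to activate the helicase and to recruit polymerase alpha. MCM10 read 646, 516 and 346 on the untreated arrays. After epirubicin, MCM10 read 167, 453, 237 and 259 in CD44-/lo cells and 205, 467, 329.6 and 180.1 in CD44hi cells. After hypoxia, MCM10 read 30.8, 249.8, 71.2 and 49.6 in CD44-/lo cells and 55.6, 147, 97.8 and 145 in CD44hi cells. The 4 hypoxia arrays of MCM10 in CD44-/lo cells spread widely, with array 2 the highest. The change was -2.66 ± 0.50 (SE), adjusted p = 0.000858, in CD44-/lo cells and -2.18 ± 0.50 (SE), adjusted p = 0.00293, in CD44hi cells. After epirubicin MCM10 stood at -0.89 ± 0.50 (SE), adjusted p = 0.358, in CD44-/lo cells and overlapped with untreated.

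The 6 subunits of the MCM ring all fell after hypoxia in both fractions. MCM2 changed by -1.82 and -2.03, the deepest estimates among the 6, and MCM4 by -1.04 and -0.91, the shallowest. MCM3 changed by -1.44 and -1.33, MCM5 by -1.66 and -1.59, MCM6 by -1.68 and -1.54, and MCM7 by -1.39 and -1.41. MCM7 had the smallest standard error of the 6, at 0.22, and MCM5 the largest, at 0.48. CDC45, the partner that turns the ring into an active helicase, fell 4.2-fold and 4.06-fold. The GINS subunits GINS1, GINS2 and GINS3, which clamp CDC45 to the ring, fell 4.24-fold, 3.99-fold and 3.69-fold in CD44-/lo cells and 4.62-fold, 4.21-fold and 3.27-fold in CD44hi cells.

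GINS4 encodes the remaining GINS subunit and had low signals. GINS4 read 24.9, 36.3 and 31.1 on the untreated arrays. After epirubicin, GINS4 read 29.9, 36.1, 25.8 and 38.2 in CD44-/lo cells and 22.1, 31.9, 25.3 and 39.8 in CD44hi cells. After hypoxia, GINS4 read 7.2, 11, 4 and 4 in CD44-/lo cells and 16.2, 17.8, 14.5 and 20.9 in CD44hi cells. Epirubicin and untreated arrays overlapped, and the hypoxia fractions did not overlap with untreated or with each other. The fall in CD44-/lo cells was -1.74 ± 0.28 (SE), adjusted p = 0.000204, and the value in CD44hi cells was -0.69 ± 0.28 (SE), adjusted p = 0.0716. GINS4 was the only member with an unadjusted p under 0.05 between the fractions after hypoxia. In limma GINS4 stood at 1.04 ± 0.26 with adjusted p = 0.454. The difference of its CD44 effects between hypoxia and epirubicin was 1.17 ± 0.37, with adjusted p = 1. Its 3 other probe sets lay below the filter, so this pattern rests on 1 probe set.

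**Figure D3:**
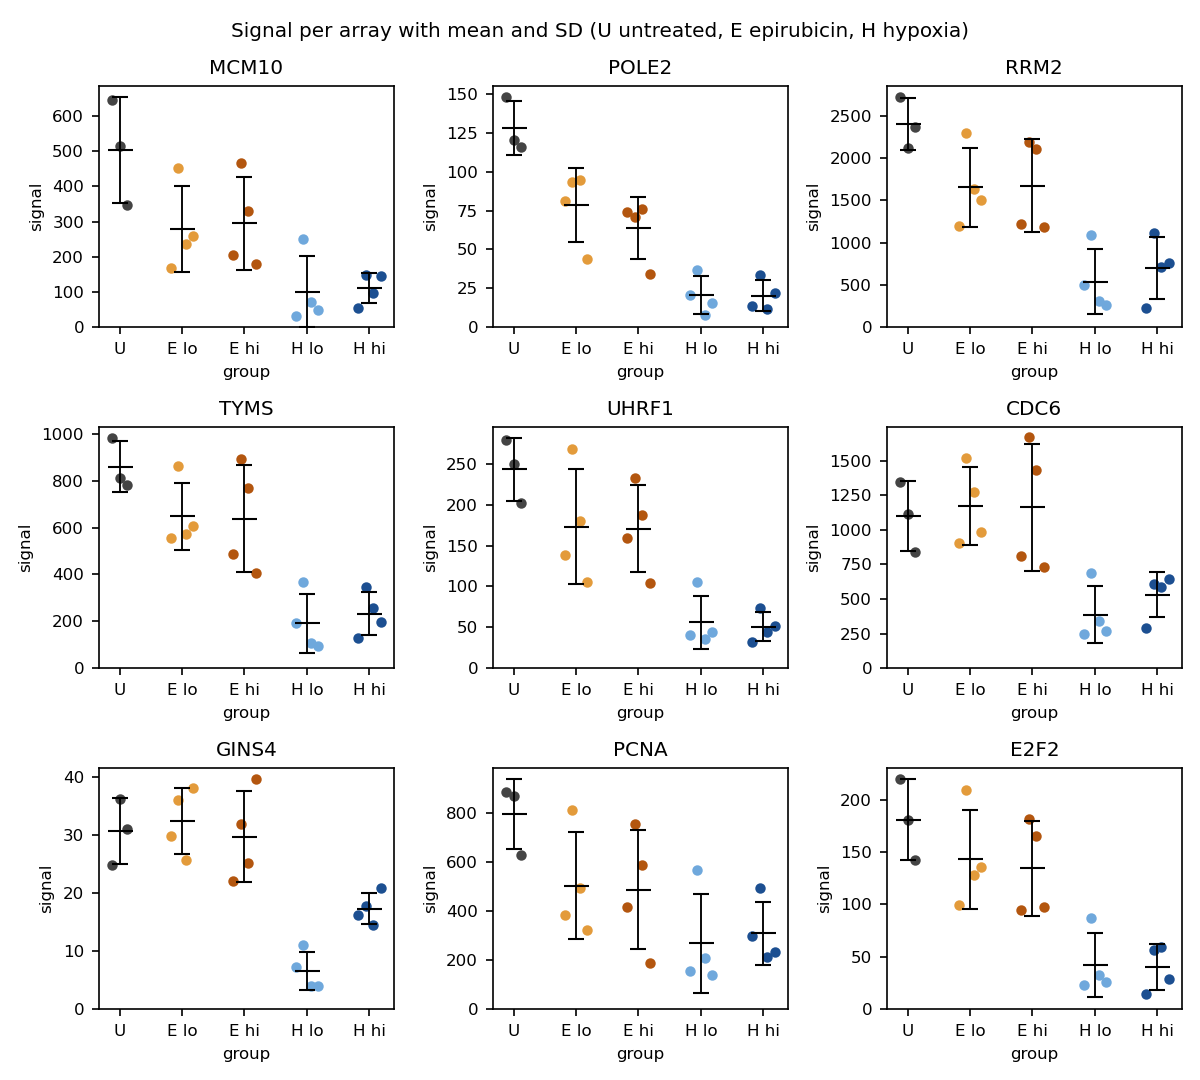
Signal per array of 9 genes in the 5 groups on linear axes from 0, with the group mean and SD in black. POLE2, TYMS, UHRF1 and E2F2 are low on all 8 hypoxia arrays, whereas GINS4 is lowest on the 4 hypoxia CD44-/lo arrays, at 4.0 to 11.0.

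Of the clamp and its loader, 4 of 5 genes fell after hypoxia in both fractions. PCNA is the ring that holds polymerases on DNA. PCNA read 886, 869 and 629 on the untreated arrays. After epirubicin, PCNA read 382, 809.6, 495 and 321 in CD44-/lo cells and 417, 752, 587 and 186 in CD44hi cells. After hypoxia, PCNA read 156, 568, 207 and 139 in CD44-/lo cells and 296, 493, 211 and 232 in CD44hi cells. The hypoxia arrays all lay below the lowest untreated array, with array 2 the highest of both fractions. Its change was -1.78 ± 0.45 (SE), adjusted p = 0.00788, in CD44-/lo cells and -1.42 ± 0.45 (SE), adjusted p = 0.0241, in CD44hi cells. PCNA was not called after epirubicin, at -0.73 ± 0.45 and -0.86 ± 0.45, where array 4 of the CD44hi fraction was the lowest. The loader subunits RFC2, RFC3 and RFC4 fell 2.53-fold, 3.89-fold and 2.88-fold in CD44-/lo cells and 2.88-fold, 4.36-fold and 2.67-fold in CD44hi cells.

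RFC5, the remaining small loader subunit measured, stood apart from the other members. RFC5 read 579, 489 and 642 on the untreated arrays. After epirubicin, RFC5 read 491, 396, 484 and 545 in CD44-/lo cells and 553, 424, 539 and 472 in CD44hi cells. After hypoxia, RFC5 read 482, 544, 576 and 480.5 in CD44-/lo cells and 605, 565, 566 and 436 in CD44hi cells. All 5 groups overlapped on this probe set, the brightest of 3, with changes of -0.13 and -0.07 after hypoxia. The other RFC5 probe sets read differently. The next brightest had a mean of 158 ± 22.4 (SD, n = 3) untreated and 63.3 ± 17.5 and 51.6 ± 6.85 (SD, n = 4 each) after hypoxia, with no overlap. The dimmest had means of 35.1 untreated and 20.5 and 17.9 after hypoxia. With the mean of all its probe sets RFC5 was called lower after hypoxia, at -0.71 ± 0.18 (adjusted p = 0.00925) and -0.91 ± 0.18 (adjusted p = 0.0011), so its call depends on the probe set. Which of them reads the main RFC5 transcript was not tested. Over all members, 39 further probe sets existed and 32 of them, of 23 genes, passed the filter. Of these 32, 32 and 31 had the sign of the chosen probe set in the hypoxia comparisons and 27 and 26 in the epirubicin ones.

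**Figure D4:**
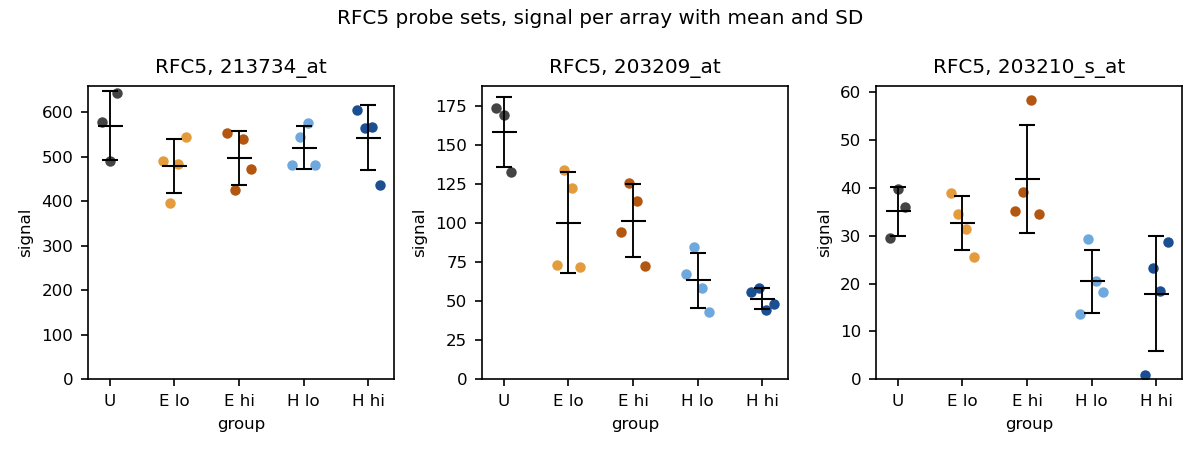
Signal per array of the 3 RFC5 probe sets in the 5 groups, with mean and SD. The probe set used (left) is level across groups, while the next brightest (middle) is at most 84.8 on the hypoxia arrays and at least 132.6 on the untreated arrays.

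Of the 8 polymerase and primase genes, 5 fell after hypoxia in CD44-/lo cells and 6 in CD44hi cells. POLE2 encodes a non-catalytic subunit of the leading strand polymerase epsilon. POLE2 read 148, 120.4 and 116 on the untreated arrays. After epirubicin, POLE2 read 81.2, 93.6, 94.7 and 43.8 in CD44-/lo cells and 73.8, 70.9, 76.2 and 34.4 in CD44hi cells. After hypoxia, POLE2 read 20.9, 37, 7.9 and 15.8 in CD44-/lo cells and 13.5, 33.4, 11.7 and 22.2 in CD44hi cells. Each hypoxia array was below each untreated array and below each epirubicin array of the same fraction. The change was -2.56 ± 0.38 (SE), adjusted p = 0.000106, in CD44-/lo cells and -2.52 ± 0.38 (SE), adjusted p = 8.39e-05, in CD44hi cells. All epirubicin arrays also lay below the untreated ones, but POLE2 was not called, at -0.73 ± 0.38 (SE), adjusted p = 0.319, and -1.01 ± 0.38 (SE), adjusted p = 0.117.

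PRIM2, the regulatory subunit of primase, was called in neither fraction. PRIM2 read 119, 183 and 134 on the untreated arrays. After epirubicin, PRIM2 read 106, 116, 149 and 98.8 in CD44-/lo cells and 179, 130.4, 108 and 82.8 in CD44hi cells. After hypoxia, PRIM2 read 151, 114, 90.8 and 39.6 in CD44-/lo cells and 71, 100.1, 95.8 and 71.1 in CD44hi cells. Its CD44-/lo hypoxia arrays spread from below to within the untreated range. PRIM2 stood at -0.66 ± 0.32 (SE), adjusted p = 0.155, and -0.75 ± 0.32 (SE), adjusted p = 0.0949. PRIM1, the catalytic primase subunit, fell 2.89-fold and 2.44-fold. The polymerase alpha subunits POLA1 and POLA2 fell 2.8-fold and 3.26-fold in CD44-/lo cells, and in CD44hi cells POLA1 fell 2.62-fold while POLA2 was not called, at -1.22 ± 0.45 (SE), adjusted p = 0.0521. POLD3, an accessory subunit of polymerase delta, had the lowest adjusted p of all members in both fractions, with changes of -1.43 ± 0.19 (SE), adjusted p = 3.43e-05, and -1.43 ± 0.19 (SE), adjusted p = 1.97e-05. These values are from the brighter of its 2 probe sets. With the mean of both, POLD3 stayed called against untreated. Its difference between hypoxia and epirubicin in CD44-/lo cells was then -0.51 and not called, with limma's adjusted p = 0.1003. The catalytic subunits POLD1 and POLE were called in CD44hi cells only, at -0.99 and -0.77, and stood at -0.83 and -0.64 in CD44-/lo cells. The difference between fractions was tested and called for 0 of these genes.

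Of the 5 genes that protect single strands or process and join new ones, 4 fell after hypoxia in CD44-/lo cells and 5 in CD44hi cells. LIG1, the ligase that seals Okazaki fragments, had the deepest mean fall of the 5 over the 4 comparisons with untreated. LIG1 read 100, 85.5 and 62.9 on the untreated arrays. After epirubicin, LIG1 read 64.7, 78.1, 63 and 39.4 in CD44-/lo cells and 54.4, 78.5, 46.1 and 39 in CD44hi cells. After hypoxia, LIG1 read 49.8, 31.7, 13.5 and 18.2 in CD44-/lo cells and 9.9, 28.6, 17.3 and 18.6 in CD44hi cells. All hypoxia arrays lay below all untreated arrays. The change of LIG1 was -1.53 ± 0.36 (SE), adjusted p = 0.00443, and -1.97 ± 0.36 (SE), adjusted p = 0.000396.

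RPA2, the middle subunit of the single-strand binding protein, moved least of these 5 genes on average over the 4 comparisons with untreated. RPA2 read 103, 85.8 and 86.9 on the untreated arrays. After epirubicin, RPA2 read 84.8, 94.3, 110.4 and 69 in CD44-/lo cells and 108, 85.9, 76.8 and 69.8 in CD44hi cells. After hypoxia, RPA2 read 65, 69.8, 50.8 and 69.5 in CD44-/lo cells and 55.5, 53, 62.5 and 66.8 in CD44hi cells. All hypoxia arrays lay below the lowest untreated array, and the epirubicin arrays overlapped with untreated. RPA2 stood at -0.50 ± 0.20 (SE), adjusted p = 0.0763, in CD44-/lo cells and was called in CD44hi cells at -0.59 ± 0.20 (SE), adjusted p = 0.0332. The large and small subunits RPA1 and RPA3 fell 1.98-fold and 2.69-fold in CD44-/lo cells and 2.01-fold and 2.94-fold in CD44hi cells. FEN1, the nuclease that trims Okazaki flaps, fell 3.31-fold and 2.55-fold.

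All 4 nucleotide synthesis genes fell after hypoxia in both fractions, with medians of -1.88 and -1.95. RRM2 is the cell cycle regulated subunit of ribonucleotide reductase. RRM2 read 2724, 2115 and 2371 on the untreated arrays. After epirubicin, RRM2 read 1191, 2298, 1629 and 1498 in CD44-/lo cells and 1214, 2189, 2108 and 1182 in CD44hi cells. After hypoxia, RRM2 read 500.5, 1094, 304 and 256 in CD44-/lo cells and 223, 1111, 706 and 755 in CD44hi cells. The highest hypoxia arrays, those numbered 2, were still below every untreated array. The fall of RRM2 was -2.38 ± 0.45 (SE), adjusted p = 0.000867, and -1.98 ± 0.45 (SE), adjusted p = 0.00268.

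RRM1 is the catalytic subunit of the same enzyme. RRM1 read 1056, 1068 and 1157 on the untreated arrays. After epirubicin, RRM1 read 829, 956, 894 and 608 in CD44-/lo cells and 942, 941, 1051 and 444 in CD44hi cells. After hypoxia, RRM1 read 809, 644, 391 and 304 in CD44-/lo cells and 334, 654, 444 and 347 in CD44hi cells. Its untreated arrays lay within a narrow range above every treated array. After hypoxia RRM1 fell by less than RRM2 in its estimate, at -1.12 ± 0.31 (SE), adjusted p = 0.0134, and -1.34 ± 0.31 (SE), adjusted p = 0.00318. The gap between the subunits was not tested. TYMS, which makes thymidylate, fell 5.06-fold and 3.87-fold, and TK1, which salvages thymidine, fell 2.67-fold and 3.87-fold. After epirubicin TK1 stood at 0.19 ± 0.34 and 0.00 ± 0.34, and TYMS at -0.42 ± 0.37 and -0.49 ± 0.37.

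All 4 genes of chromatin restoration fell after hypoxia in both fractions. UHRF1 recognises hemimethylated DNA behind the fork and recruits DNMT1. UHRF1 read 279, 249.6 and 202 on the untreated arrays. After epirubicin, UHRF1 read 138, 268, 180.1 and 105 in CD44-/lo cells and 159, 233, 188 and 105 in CD44hi cells. After hypoxia, UHRF1 read 40, 105, 35.5 and 43.6 in CD44-/lo cells and 31.6, 74, 44.4 and 52.1 in CD44hi cells. Every hypoxia array was below every untreated array, again with array 2 highest in each fraction. The change of UHRF1 was -2.16 ± 0.35 (SE), adjusted p = 0.000237, and -2.22 ± 0.35 (SE), adjusted p = 0.000128. DNMT1, the maintenance DNA methyltransferase, fell 2.36-fold and 1.99-fold.

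CHAF1B, a subunit of the histone chaperone CAF-1, had the smallest mean absolute change of these 4 genes over the 4 comparisons with untreated. CHAF1B read 163, 171 and 170.5 on the untreated arrays. After epirubicin, CHAF1B read 237, 196, 149.6 and 230.4 in CD44-/lo cells and 158, 202, 166 and 130.4 in CD44hi cells. After hypoxia, CHAF1B read 83.5, 68.1, 58.3 and 66.5 in CD44-/lo cells and 32, 87.1, 53.5 and 51.5 in CD44hi cells. The epirubicin arrays lay on both sides of the untreated ones and the hypoxia arrays below. CHAF1B changed by -1.24 ± 0.25 (SE), adjusted p = 0.00127, and -1.59 ± 0.25 (SE), adjusted p = 9.58e-05. Its partner CHAF1A fell 3.96-fold and 3.64-fold.

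All 3 E2F factors fell after hypoxia in both fractions, with medians of -2.06 and -1.67. E2F2 is an activating member of the family. E2F2 read 219.8, 180.4 and 142 on the untreated arrays. After epirubicin, E2F2 read 99.1, 209, 128 and 135 in CD44-/lo cells and 94.6, 182, 165 and 97.1 in CD44hi cells. After hypoxia, E2F2 read 23.1, 86.9, 32.8 and 25.5 in CD44-/lo cells and 14.8, 56.7, 59.4 and 29.1 in CD44hi cells. The hypoxia arrays did not overlap with the untreated ones. E2F2 changed by -2.16 ± 0.42 (SE), adjusted p = 0.00104, and -2.20 ± 0.42 (SE), adjusted p = 0.000592.

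E2F1 is the best known activator of the family. E2F1 read 155, 195 and 84.4 on the untreated arrays. After epirubicin, E2F1 read 84.6, 188, 95.9 and 79.5 in CD44-/lo cells and 64.8, 124, 72.5 and 94.7 in CD44hi cells. After hypoxia, E2F1 read 32, 95.3, 42 and 11.3 in CD44-/lo cells and 25.4, 67.6, 52.3 and 37.1 in CD44hi cells. Array 2 of the hypoxia CD44-/lo group lay above the lowest untreated array. The change of E2F1 was -1.82 ± 0.46 (SE), adjusted p = 0.00807, and -1.58 ± 0.46 (SE), adjusted p = 0.015. E2F8, an atypical member that represses E2F targets, fell 4.17-fold and 3.18-fold. Members with an E2F match upstream were lower in 14 of 15 cases in CD44-/lo cells and 14 of 15 in CD44hi cells, with medians of -1.71 and -1.54. Those without a match were lower in 21 of 24 and 22 of 24 cases, with medians of -1.57 and -1.56.

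The fractions were compared directly within each treatment. After epirubicin 0 of 46 members were called between CD44hi and CD44-/lo cells by limma and 0 had an unadjusted p under 0.05, where 0.0232% of all genes tested were called in either direction. After hypoxia 0 were called and 1, GINS4, had an unadjusted p under 0.05, where 0% of all genes were called. The difference of the CD44 effects between treatments gave 0 members, again with GINS4 alone at an unadjusted p under 0.05, and 0% of all genes. The estimates between fractions ran from -0.40 to 0.20 after epirubicin and from -0.53 to 1.04 after hypoxia. The 95% intervals of single members reached -1.27 and 1.05 after epirubicin and -1.29 and 1.58 after hypoxia, and a member that missed the threshold is not shown to be equal in both fractions. By array number, the median CD44hi minus CD44-/lo difference over members was -0.13, -0.02, 0.17 and -0.37 after epirubicin and -0.44, -0.16, 0.19 and 0.53 after hypoxia.

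The treatments were also compared within each fraction, at their different durations. In CD44-/lo cells 33 members were lower after hypoxia than after epirubicin and 0 higher, where 9.84% of all genes were lower and 7.08% higher. In CD44hi cells 28 were lower and 0 higher, where 10.2% of all genes were lower and 8% higher. The median difference was -1.35 and -1.09, and 26 members were lower in both fractions. The share of all genes tested that were lower in both was not computed, but it cannot exceed 9.84%. RFC3 was among those 26 members at -1.92 ± 0.32 (SE), adjusted p = 0.00032, and -1.99 ± 0.32 (SE), adjusted p = 0.000245. CHAF1B stood at -1.49 and -1.54, and TK1 at -1.60 and -1.96. The 11 members called in neither fraction were MCM4, MCM5, MCM6, PCNA, RFC5, POLA1, PRIM2, POLD1, POLE, RPA2 and DNMT1. With replicate number as a replicate block, 40 and 36 members were lower, where 13.6% and 14% of all genes were, and 6 of those 11 were then called: MCM4 and MCM6 in both fractions, MCM5, PCNA and DNMT1 in CD44-/lo cells, and POLD1 in CD44hi cells. The hypoxia arrays lay below all epirubicin arrays for 26 and 23 members, against 10.2% and 9.73% of all genes. With the mean of all probe sets of a gene, 30 of 45 members tested were lower in each fraction. In that fit 17.0% and 18.9% of all genes were called in either direction. GINS2, at -0.42 with limma's adjusted p = 0.212, POLD3 and MCM3 lost their call in CD44-/lo cells, and RRM1 gained a call. In CD44hi cells CDC45 and RPA1 lost theirs, and FEN1, POLD1, RFC5 and RPA2 gained a call.

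Arrays of 1 group differed in how low these genes were. Averaged over the 46 members, the hypoxia arrays stood at -1.61, -0.85, -1.75 and -2.17 in CD44-/lo cells and at -2.05, -0.97, -1.46 and -1.62 in CD44hi cells, relative to the untreated mean. Array 2 was the highest of its group for 36 and 39 members. After epirubicin the averages were -0.47, 0.06, -0.33 and -0.61 in CD44-/lo cells and -0.53, 0.00, -0.22 and -0.97 in CD44hi cells. There too array 2 was the highest for 36 and 31 members, and array 4 the lowest for 25 and 38. In each of the 4 treated groups array 2 also had the lowest mean signal of the 18 hybridisation control probe sets. It was 2042.5 to 2279 there, against 2589 to 5818 on the other arrays of these groups and 1986 to 2350 untreated. The epirubicin arrays numbered 4 had ratios of 3′ to 5′ ACTB signal of 1.71 and 1.85, against 1.21 to 1.27 untreated. Without the hypoxia arrays numbered 2, the counts of lower members against untreated were 41 and 42. Without the epirubicin arrays numbered 4 they were 0 and 0. Adjusted for the mean signal of those control probe sets, the hypoxia counts were 41 and 36, and adjusted for the ACTB ratio they were 41 and 43.

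**Figure D5:**
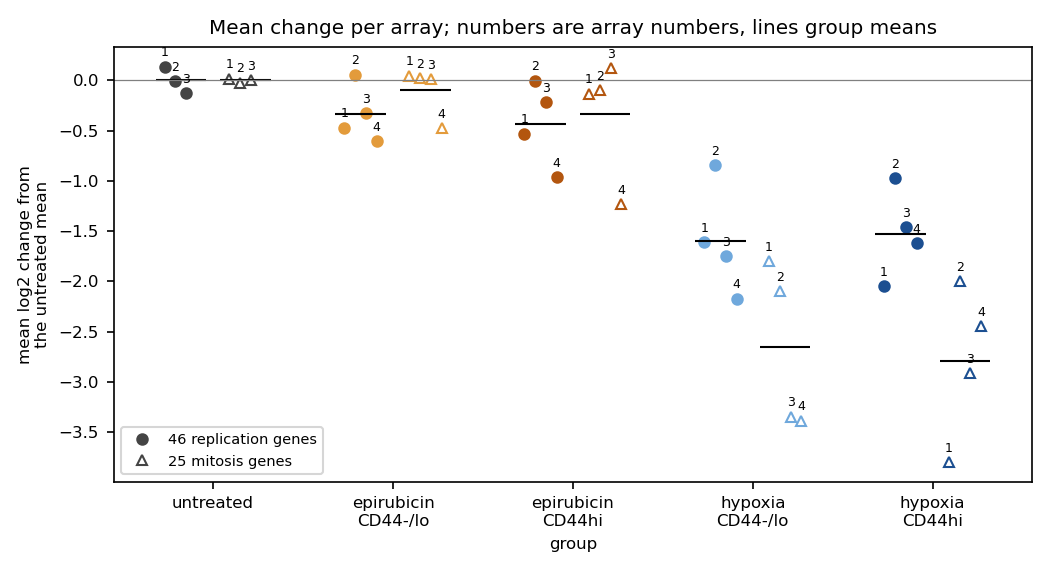
Mean log2 change from the untreated mean per array for the 46 replication genes (filled circles) and 25 mitosis genes (open triangles), with array numbers and group means as lines. The hypoxia arrays numbered 2 are the highest circles of their groups at -0.85 and -0.97, and the triangles of the hypoxia groups reach -3.80.

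Other genes of the same pathways were read from lists. After hypoxia, 11.7% of all genes tested were lower and 10.7% higher in CD44-/lo cells. In CD44hi cells 14.1% were lower and 12.8% higher. Of 29 further replication factors 18 were lower and 1 higher in CD44-/lo cells and 16 lower and 1 higher in CD44hi cells, with medians of -0.97 and -0.89. TOP2A, the topoisomerase targeted by epirubicin, changed by -2.50 and -2.79 after hypoxia and stood at 0.21 and 0.05 after epirubicin. DTL, an adaptor of the ligase that destroys CDT1, changed by -2.23 and -1.99, and TIMELESS, a fork protection factor, by -2.10 and -1.83. POLD4, the smallest polymerase delta subunit, was the one that rose, by 0.83 and 1.01. In contrast ORC3, ORC4, MCMBP and RFC1 were not called in any of the 4 comparisons with untreated.

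Of 22 further nucleotide supply genes tested, 12 were lower after hypoxia in CD44-/lo cells and 10 in CD44hi cells and 0 were higher. Their medians were -0.63 and -0.53. The shares over all genes tested were 11.7% lower and 10.7% higher in CD44-/lo cells, and 14.1% and 12.8% in CD44hi cells. SAMHD1, which degrades deoxynucleotides, changed by -1.88 and -1.36. DCTPP1, which removes modified dCTP, changed by -1.41 and -1.48, and MTHFD1, of folate metabolism, by -1.19 and -1.58. RRM2B, the p53-induced reductase subunit, was not called in any of these comparisons.

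Of 23 regulators of E2F and RB, 9 were lower and 2 higher in CD44-/lo cells after hypoxia, where 11.7% of all genes were lower and 10.7% higher. In CD44hi cells 6 were lower and 2 higher, where 14.1% of all genes were lower and 12.8% higher. FOXM1 and MYBL2, activators of mitotic genes, changed by -3.00 and -2.98 in CD44-/lo cells and -3.17 and -2.86 in CD44hi cells. CDKN1A, which encodes the CDK inhibitor p21, rose by 2.71 and 3.72, and was not called after epirubicin, at 0.98 ± 0.43 (SE), adjusted p = 0.231, and 1.16 ± 0.43 (SE), adjusted p = 0.109. LIN37, of the DREAM repressor complex, rose by 0.75 and 0.70. RB1, E2F4 and CDKN1B were not called. All 25 mitosis genes tested were lower after hypoxia in both fractions, with medians of -2.68 and -2.77 beside -1.63 and -1.54 for the replication genes. After epirubicin 0 genes of these 4 lists were called by limma against untreated. At an unadjusted p under 0.05, in either direction, stood 4, 2, 2 and 0 in CD44-/lo cells and 1, 5, 4 and 1 in CD44hi cells. The order is replication, nucleotide supply, regulators and mitosis. Of all genes tested, 6.88% were lower and 11.3% higher at that unadjusted p in CD44-/lo cells. In CD44hi cells 10% were lower and 13.1% higher.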

How the data were processed

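RNA of 19 SKBR3 samples was hybridised to Affymetrix arrays, 1 per sample, from 200 ng of total RNA. The authors deposited 1 linear intensity for each probe set, computed with MAS5 according to the submitters' processing notes, whose settings are not given in the sources used here. On each array the mean was 100.0 once 2% of values at either end were removed, a common scale that was kept. Such scaling would hide a change in total RNA per cell. Of 54675 probe sets, 62 were controls, 41091 named 1 gene, 1801 several and 11721 none. A gene was read from its own probe set with the highest mean, and a probe set of the type that admits shared probes was used only where no other existed.

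Values were analysed as log2(signal + 4.2), which understates the change of low genes. Genes with at least 3 arrays at 16.9, the table median, were tested in limma 3.58.1 (R 4.3.3) with 5 group means over 19 arrays, empirical Bayes with a variance trend, two-sided tests and Benjamini-Hochberg adjustment over all 12925 genes in each of 9 comparisons. The code was tested on simulated data. The number of arrays limits the precision. Values in every array are given, in each role, for the member with the largest mean fall and the one with the smallest mean absolute change over the 4 comparisons with untreated. The members, lists and tests were chosen with earlier results of these data known.

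Replicate numbers are shared by the groups. Deviations of same-numbered CD44-/lo and CD44hi arrays correlated at r = 0.114 to 0.546 after epirubicin, where every pair exceeded 0.1, and at -0.04 to 0.633 after hypoxia, where 1 pair did not. With untreated arrays they correlated at -0.279 to 0.118. Alternatives were other offsets, filters, scaling, probe set rules, fits, replicate blocks and technical covariates, and leaving out arrays. Promoter windows come from RefSeq (GRCh38.p14).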

Additional observations from a re-analysis of the deposited data

Results flagged for a closer look

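The signals of 16 genes and the average over all members were screened in the 4 treated groups for 1 array far from the other 3 on the log2 scale. Of 68 such groups, 3 stood out. Chance alone flags about 1 in 20 groups. CDC6 on array 1 of the hypoxia CD44hi group read 288.1, against 583.6 to 645.3 on the other arrays. POLE2 on array 4 of the epirubicin CD44hi group read 34.4, against 70.9 to 76.2. RRM1 on the same array 4 read 444.3, against 941.3 to 1051.0. That epirubicin array had the highest ACTB 3′ to 5′ ratio of the 19, at 1.85, and its part in these low values was not tested.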

How the results depend on the processing

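No count of called members changed by over 1.5 times under other offsets, filters, quantile normalization, probe set averaging, no variance trend, the technical covariates or the arrays numbered 2 or 4 left out, in the comparisons each was run on. Without the hypoxia arrays numbered 2, POLA1 was also called lower after epirubicin in CD44hi cells, with limma's adjusted p = 0.0487, since those arrays share the estimate of spread. Fitted with only the groups compared, 3 members were lower after epirubicin in CD44-/lo cells (MCM6, POLA1 and RFC4) and 2 in CD44hi cells (POLA1 and POLE2), in place of 0, while the share of all genes called lower moved from 0.565% and 1.79% to 4.21% and 5.26%. With replicate number as a replicate block over all arrays, 1 member (POLA1) was lower after epirubicin in CD44hi cells, and 41 and 44 members were lower after hypoxia. In that fit 2.89% of all genes were lower after epirubicin in CD44hi cells, and 13.4% and 15.1% after hypoxia. The replicate block gave 40 and 36 members for hypoxia against epirubicin, and 0 for the 3 comparisons of CD44 fractions, as did the block within treatment. Leaving out 1 array at a time gave 37 to 41 and 31 to 42 members lower after hypoxia in CD44-/lo and CD44hi cells, with the 31 without untreated array 1, and 27 to 38 and 20 to 33 for hypoxia against epirubicin. The other 5 comparisons gave 0 throughout. Under every left-out array 35 of 41 and 30 of 42 members kept their call after hypoxia. Those that lost it at least once were E2F1, MCM3, MCM4, MCM5, POLA2 and RRM1 in CD44-/lo cells and CDC6, CDT1, DNMT1, E2F1, E2F8, MCM3, MCM4, MCM5, PCNA, POLD1, POLE and RPA2 in CD44hi cells. In these fits no called change turned its sign. Signals near or under the offset, as for ORC1 and GINS4 after hypoxia, limit what a fold can show. Other members also had low readings after hypoxia, down to 7.9 for POLE2, 8.0 for E2F8, 8.6 for CDC45 and 5.6 for POLA2. Their folds carry the same limit.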
